A study of Mus musculus with 12 samples.

Results

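The genes described here encode the collagens, the laminins and the integrins, the structural proteins of the extracellular matrix and the receptors by which cells hold on to it. They were picked by symbol alone: every gene named Col, Lam or Itg in the standard pattern of its family and represented by probes with a single gene symbol. This gave 47 of the 8267 genes with such a symbol: 23 collagens, 7 laminins and 17 integrins. One of the 17, Itgb3bp, matches the pattern but encodes a centromere protein that was named for binding an integrin tail, and it is not an integrin subunit. RNA came from MECs, a cell line of mouse intraembryonic endothelial cells, in 4 groups of 3 arrays: mock-treated control cells, and cells exposed to BMP6 for 4, 12 or 24 h. BMP6 is a secreted growth factor of the TGF-beta superfamily. The labels give neither its dose nor a time for the controls, and all groups come from 1 cell line. Each array set the RNA of the cells, labelled with Cy5, against a universal mouse reference RNA labelled with Cy3.

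A value is a log ratio of the channels. It was read as log2, with the cells in the numerator, since no source used here states its base or its direction. With the opposite sign every rise below would be a fall, every fall a rise, and the levels would turn, while counts of all changes and p-values would stay. With a natural logarithm the folds would be larger. Gene names depend on a layout of the array that was worked out from how well probes of the same gene agreed. Where a gene had several probes, their mean was used.

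Collagens are built from 3 alpha chains wound into a triple helix. Types I, III and V form fibrils, type IV forms the sheet-like network of the basement membrane under an endothelium, type VI forms beaded filaments and type VIII forms lattices in vessel walls. Laminins are cross-shaped trimers of an alpha, a beta and a gamma chain that build the other network of the basement membrane, and the gamma 1 chain is shared by most of them. Integrins pair an alpha with a beta subunit: alpha 5 with beta 1 is the classic fibronectin receptor, alpha V pairs bind RGD-bearing proteins such as vitronectin, and alpha 6 with beta 1 or beta 4 binds laminin.

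The type IV collagen genes lie in head-to-head pairs, and 4 of the 11 genes that passed the test form 2 such pairs. Their start regions are shown because the chains of 1 pair rose and those of the other fell, as given below. Each window, from RefSeq on GRCm38.p6, runs from 250 bases before to 50 after the gene's start and reads 5′ to 3′ on the gene's own strand. Capitals mark GGCGCC, a GC-rich element known from BMP-responsive enhancers, and CAGAC or its complement GTCTG, the short Smad-binding element. Col4a1 (chr8:11312777-11313076, minus strand) and Col4a2 (chr8:11312555-11312854, plus strand) start 21 bases apart, and their windows overlap over 78 bases, at chr8:11312777-11312854.
Col4a1: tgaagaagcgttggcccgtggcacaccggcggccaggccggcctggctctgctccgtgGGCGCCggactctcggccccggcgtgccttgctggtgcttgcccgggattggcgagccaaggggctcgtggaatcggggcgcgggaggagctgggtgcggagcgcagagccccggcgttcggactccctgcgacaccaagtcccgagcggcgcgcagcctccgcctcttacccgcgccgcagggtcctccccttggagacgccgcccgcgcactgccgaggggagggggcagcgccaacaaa
Col4a2: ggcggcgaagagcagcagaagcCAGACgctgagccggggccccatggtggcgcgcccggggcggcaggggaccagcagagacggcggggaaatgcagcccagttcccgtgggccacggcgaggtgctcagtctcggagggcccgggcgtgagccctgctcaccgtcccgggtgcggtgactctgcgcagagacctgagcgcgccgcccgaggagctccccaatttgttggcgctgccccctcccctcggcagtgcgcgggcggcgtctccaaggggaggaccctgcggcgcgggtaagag
Col4a6 (chrX:141474027-141474326, minus strand) and Col4a5 (chrX:141475169-141475468, plus strand) start 1343 bases apart, and their windows do not overlap.
Col4a6: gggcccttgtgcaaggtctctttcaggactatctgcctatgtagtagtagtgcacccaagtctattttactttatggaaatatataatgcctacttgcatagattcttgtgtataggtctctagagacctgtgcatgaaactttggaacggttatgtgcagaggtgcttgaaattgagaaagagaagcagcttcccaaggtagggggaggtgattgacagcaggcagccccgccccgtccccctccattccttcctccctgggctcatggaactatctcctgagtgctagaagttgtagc
Col4a5: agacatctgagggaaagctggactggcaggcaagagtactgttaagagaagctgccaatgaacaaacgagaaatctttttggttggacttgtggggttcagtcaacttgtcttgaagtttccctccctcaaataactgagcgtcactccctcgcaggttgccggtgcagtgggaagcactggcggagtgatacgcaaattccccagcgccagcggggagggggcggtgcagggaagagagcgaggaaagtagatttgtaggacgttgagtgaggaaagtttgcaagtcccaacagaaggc
The window of Itga5 (chr15:103366742-103367041, minus strand), the integrin gene with the lowest p, is the last shown.
Itga5: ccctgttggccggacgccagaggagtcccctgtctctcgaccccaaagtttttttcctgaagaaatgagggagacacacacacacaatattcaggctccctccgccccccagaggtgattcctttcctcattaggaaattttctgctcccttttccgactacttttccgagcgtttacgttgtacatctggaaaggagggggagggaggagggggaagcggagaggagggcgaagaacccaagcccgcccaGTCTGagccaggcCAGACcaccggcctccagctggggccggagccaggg

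The Col4a1 window holds GGCGCC from position -192 to -187 relative to the start, and the Col4a2 window holds CAGAC from -228 to -224. The Itga5 window holds GTCTG and CAGAC just after the start, and the windows of Col4a5 and Col4a6 hold none of these elements. Falling genes held them too: Col3a1 had 2 matches of CAGAC or GTCTG and Col8a1 had 1, while Col6a1, which also fell, had none. No window was available for Itga6, Lamc1 and Col14a1. Both elements are common. The table held 38 windows of 34 of the 47 members. Counting both strands, GGCGCC (its own complement) was found in 11.9% of all 32851 windows and in 13.2% of the 38, and CAGAC or GTCTG in 49.6% and 57.9%. CCAAT, the CCAAT box, or its complement ATTGG was found in 37.4% of all windows and in 23.7% of the 38. By gene, 9 of the 34 members held it, Col4a1, Col4a2 and Col4a5 among them. CACCTG, an E-box that Snail factors bind, or CAGGTG was found in 20.2% of all windows and in 21.1% of the 38, from 8 of the 34 members. These are matches of letters, not measured binding.

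BMP target genes were read as a check of the treatment. Id1, Id2, Id3 and Snai1, the 4 measured of 6 listed, were all higher at 4 and 12 h, and 3 of them at 24 h, although none of these calls was made without the replicate block described next. Markers that define endothelial cells lay low. Of the 13 listed, 5 were measured (Pecam1, Cdh5, Kdr, Flt1 and Esam), and none lay above the reference RNA in control cells, with a median of -1.25. One of the 5, Flt1, was higher at 4 h (0.23, limma adjusted p 0.0366, without the block 0.346), a call missed after quantile normalization (0.0512) and without control array 1, 2 or 3, 4 h array 2 or 3, 12 h array 1, 2 or 3 or 24 h array 3 (0.0586 to 0.147). Of 7 smooth muscle markers 6 were measured, and Cnn1 was higher at 4 h (0.25, adjusted p 0.0135, without the block 0.778), but not without control array 2 or 4 h array 2 (0.0737 and 0.072). Of 8 blood markers 4 were measured and of 8 epithelial markers 7, and none of these passed at any time. In control cells 4 of 5 measured fibroblast and mesenchymal markers lay above the reference (median 0.23), as did 4 of the 6 smooth muscle markers (0.017). None of the 4 blood markers (-0.70) and 1 of the 7 epithelial markers (-0.98) did. A ratio to a reference made from many tissues does not say that a gene is silent. Over all 12 arrays the medians lay between -0.044 and 0.002, and no value was missing.

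Each comparison used limma on all 12 arrays with the replicate number of the sample title as a block, so that arrays 1, 2 and 3 of each group were compared with their namesakes. Benjamini-Hochberg adjustment ran over the 8267 genes, and a gene was called at an adjusted p under 0.05. Without the block none of the 47 genes passed in any comparison, and 0.169% of all genes passed at 4 h, 0.0726% at 24 h against 4 h. Without it, limma gave 5 members an unadjusted p under 0.05 at 4 h, 4 at 12 h and 3 at 24 h, beside 614, 393 and 166 of all 8267 genes. The Student test that the study names for its gene lists (the methods' t-test) gave 2, 4 and 1 members, with 0 after adjustment. Its unadjusted counts over all genes were 474, 297 and 175. Each call below therefore rests on the pairing, and the adjusted p without the block is given beside it. The same 3 control arrays serve at 4, 12 and 24 h. In bulk RNA, fewer cells of a kind and less RNA per cell cannot be told apart.

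Against the reference RNA, control MECs were low in most matrix genes. The median log2 ratio over the 23 collagens was -0.60, with 5 of 23 above 0. It was -0.21 over the 7 laminins, with 2 above 0, and -0.18 over the 17 integrins, with 7 above 0, while the median over all genes was 0.031, with 52.3% above 0. The collagens with the highest mean over the 12 arrays were Col8a1 at 1.52 ± 0.30 (SD, n = 12) and Col4a5 at 1.49 ± 0.15. The lowest were Col14a1, a fibril-associated collagen, at -2.56 ± 0.19 and Col2a1, the cartilage collagen, at -2.16 ± 0.13. Among laminins Lamc1 (0.31 ± 0.12) and Lama3 (0.063 ± 0.078) lay highest, and Lama4 (-0.95 ± 0.15), the alpha chain known from endothelial basement membrane, and Lama2 (-0.47 ± 0.13), the muscle alpha chain, lowest. Among integrins Itga2 (0.72 ± 0.26), a collagen receptor subunit, and Itgb1 (0.56 ± 0.093), the common beta partner, lay highest, and Itga9 (-1.60 ± 0.22) and Itga8 (-1.17 ± 0.17) lowest. These ratios rank genes against the reference, which differs in content from gene to gene, and not by abundance.

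**Figure D1:**
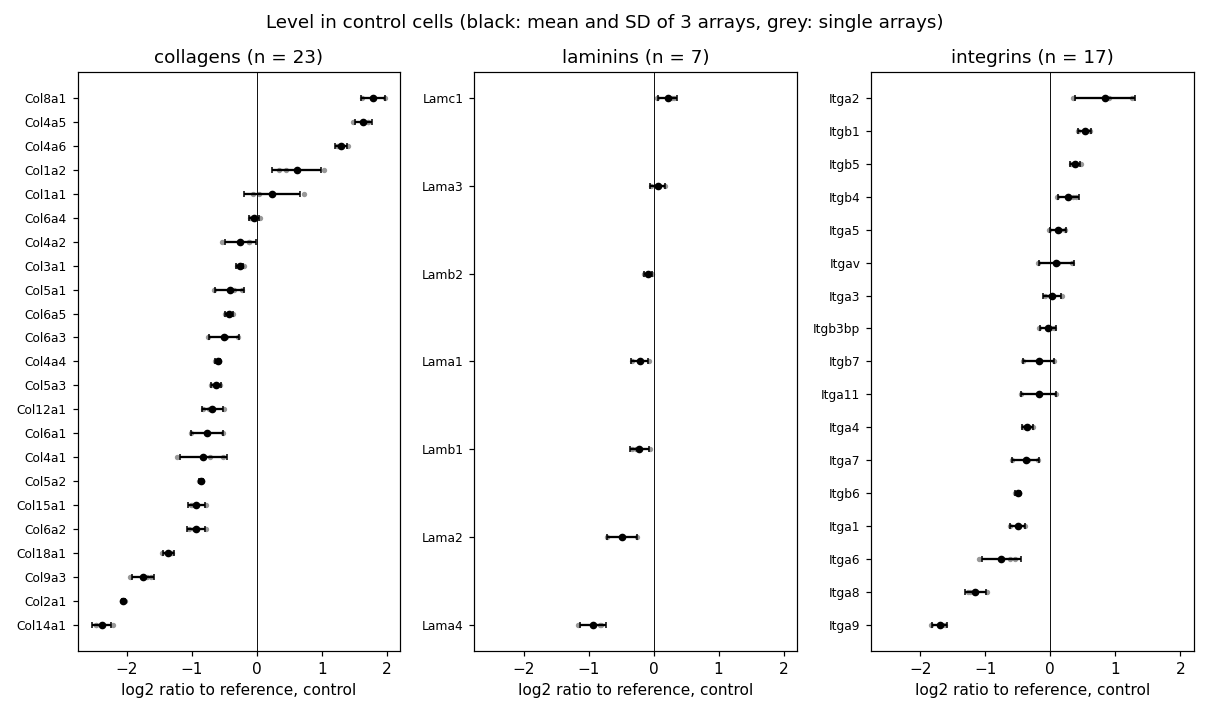
Log2 ratio to the reference RNA (x axis) of each of the 47 genes in control cells, by family, with the mean and SD of 3 arrays in black and the single arrays in grey. Most collagens lie left of 0 (18 of 23), while Col8a1, Col4a5 and Col4a6 lie above 1.

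At 4 h of BMP6, 5 of the 23 collagens passed the test: Col4a1 and Col4a2 were higher and Col8a1, Col3a1 and Col14a1 lower. One of 7 laminins, Lamc1, and 2 of 17 integrins, Itga5 and Itga6, were higher, and no laminin or integrin was lower. Among all 8267 genes, 2.27% were called higher and 3.75% lower at 4 h, set against 5 and 3 of the 47. At 12 h, 5 collagens passed, with Col4a2 higher and Col4a5, Col4a6, Col6a1 and Col8a1 lower. No laminin passed, and among integrins Itga6 was higher. The background at 12 h was 0.472% higher and 1.42% lower, against 2 and 4 of the 47. At 24 h none of the 47 passed limma's test (lowest adjusted p 0.44), 10 had an unadjusted p under 0.05 (3 without the block, 1 by the methods' t-test), and 0.169% of all genes passed. Of all 8267 genes, 656 had an unadjusted limma p under 0.05 at 24 h with the block. The median log2 difference of a family stayed within 0.091 of 0 at every time: for collagens it was 0.007, -0.062 and -0.091 at 4, 12 and 24 h, for laminins -0.002, -0.021 and 0.018, and for integrins 0.072, 0.035 and 0.055. Over all genes it was -0.006, -0.002 and -0.005.

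**Figure D2:**
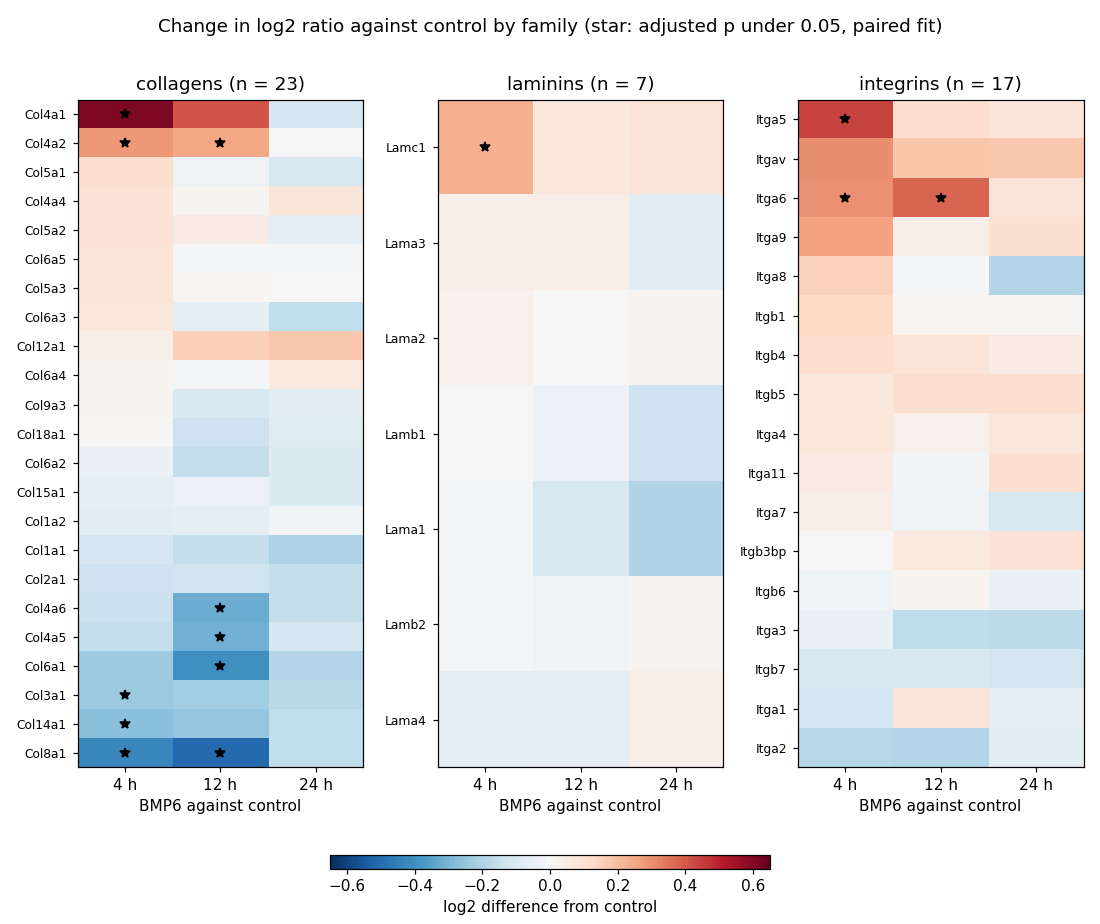
Log2 difference from control (colour) at 4, 12 and 24 h (columns) for each collagen, laminin and integrin (rows, ordered by the 4 h value), with a star where the adjusted p was under 0.05 in the paired fit. Stars stand in the 4 h and 12 h columns for 11 genes and nowhere in the 24 h column.

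Col4a1 and Col4a2 encode the alpha 1 and alpha 2 chains, which are wound together in the type IV molecule of nearly all basement membranes. Col4a1 read -1.23, -0.73 and -0.53 on control arrays 1 to 3, -0.54, 0.087 and -0.21 at 4 h, -0.79, -0.037 and -0.43 at 12 h and -1.31, -0.77 and -0.73 at 24 h. Each 4 h array lay above the control array of its number, although the groups overlap because array 1 was low in all groups. The rise at 4 h was 0.61 on the log2 scale (SE 0.099, 95% interval 0.39 to 0.83, 1.52-fold), with a limma adjusted p of 0.00644, and 0.535 without the block. At 12 h the difference was 0.41 (adjusted p 0.0771), higher in 3 of 3 pairs, and at 24 h -0.11 (adjusted p 0.859). The 4 h call held without any single array, but was missed with replicate number 1 or 2 left out of all groups (0.0714 and 0.112).

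Col4a2 read -0.53, -0.12 and -0.12 in control, -0.28, 0.25 and 0.11 at 4 h, -0.23, 0.17 and 0.051 at 12 h and -0.44, -0.15 and -0.17 at 24 h. All 3 pairs were higher at 4 h and at 12 h, and again the groups overlap. It rose by 0.28 at 4 h (SE 0.053, limma adjusted p 0.0124, without the block 0.789) and by 0.25 at 12 h (SE 0.053, adjusted p 0.0453, without the block 1.0), and differed by 0.002 at 24 h. The 4 h call was missed without control array 2 (adjusted p 0.0644) or 4 h array 2 (0.0673). The 12 h call was missed on median-centred arrays (0.052), without control array 1 or 2 (0.11 and 0.175), 4 h array 3 (0.054), 12 h array 1, 2 or 3 (0.193, 0.198 and 0.112) or 24 h array 1, 2 or 3 (0.0555, 0.0601 and 0.0759).

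Col4a5 and Col4a6 encode the alpha 5 and alpha 6 chains, which join in a rarer type IV molecule found in, among other places, smooth muscle and epidermal basement membranes. Here they lay well above the reference. Col4a5 read 1.72, 1.49 and 1.71 in control, 1.40, 1.43 and 1.61 at 4 h, 1.26, 1.25 and 1.47 at 12 h and 1.59, 1.44 and 1.55 at 24 h. Col4a6 read 1.24, 1.23 and 1.40 in control, 1.10, 1.21 and 1.15 at 4 h, 0.95, 0.94 and 1.02 at 12 h and 1.17, 1.15 and 1.08 at 24 h. For both genes every 12 h array lay below every control array. Col4a5 fell by 0.31 at 12 h (SE 0.062, 1.24-fold lower, limma adjusted p 0.0391, without the block 0.685). Col4a6 fell by 0.32 (SE 0.058, 1.25-fold lower, adjusted p 0.0246, without the block 0.317). At 4 h the differences were -0.16 (adjusted p 0.179) and -0.14 (0.204), and at 24 h -0.11 (0.729) and -0.16 (0.524). The Col4a5 call was missed after quantile normalization (adjusted p 0.0705), and without control array 1 or 2 (0.104 and 0.0911), 4 h array 2 (0.0559), 12 h array 1, 2 or 3 (0.188, 0.135 and 0.0866) or 24 h array 1, 2 or 3 (0.0529, 0.0676 and 0.0518). The Col4a6 call was missed without control array 1 or 2 (0.0525 and 0.0606) or 12 h array 1, 2 or 3 (0.115, 0.132 and 0.0831).

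The fifth type IV chain measured, Col4a4, differed from control by 0.094 at 4 h (adjusted p 0.28). At 12 h the type IV chains thus included 1 call upward and 2 downward, and the differences of head-to-head neighbours lay on the same side of 0 within each pair. How the 2 pairs differ from each other was not tested.

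Col8a1 encodes the alpha 1 chain of type VIII collagen, a short-chain collagen of vessel walls and of the membrane under the corneal endothelium, and its mean ratio to the reference in control cells was the highest of the 23 collagens. At 4 and 12 h the mean of Col4a5 was higher (1.48 against 1.36, and 1.32 against 1.28), by less than the SD of the Col8a1 arrays. Col8a1 read 1.62, 1.77 and 1.98 in control, 1.10, 1.46 and 1.53 at 4 h, 0.94, 1.25 and 1.66 at 12 h and 1.40, 1.68 and 1.80 at 24 h. All 3 pairs were lower at 4 h, with no overlap between the groups. At 12 h all 3 pairs were lower too, while 12 h array 3 lay above control array 1. Col8a1 fell by 0.42 at 4 h (SE 0.072, 1.34-fold lower, limma adjusted p 0.00792, without the block 0.611) and by 0.50 at 12 h (SE 0.072, 1.42-fold lower, adjusted p 0.00857, without the block 0.966). At 24 h the difference was -0.16 (adjusted p 0.627). The 4 h call held without any single array, and the 12 h call was missed without 12 h array 1 or 2 (0.0558 and 0.0635). With replicate number 1 or 2 left out of all groups, the 4 h call was missed (0.0611 and 0.105).

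Col3a1 encodes type III collagen, a fibrillar collagen of distensible tissues such as vessel walls. It read -0.28, -0.31 and -0.20 in control and -0.47, -0.53 and -0.51 at 4 h, so the groups did not overlap. It fell by 0.24 at 4 h (SE 0.057, limma adjusted p 0.0363, without the block 0.214), and differed by -0.23 at 12 h (adjusted p 0.0838) and -0.18 at 24 h (0.44). The 4 h call was missed without control array 2 or 3 (0.0892 and 0.0986), 4 h array 1, 2 or 3 (0.0769, 0.124 and 0.106), 12 h array 1, 2 or 3 (0.0551, 0.0564 and 0.0653) or 24 h array 1 (0.0595). The other 6 fibrillar genes (Col1a1, Col1a2, Col2a1, Col5a1, Col5a2 and Col5a3) passed at no time, with 4 h differences between -0.14 and 0.10.

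Col14a1 encodes a fibril-associated collagen. It read -2.47, -2.47 and -2.22 in control and -2.57, -2.78 and -2.62 at 4 h, all below control. It fell by 0.27 at 4 h (SE 0.069, limma adjusted p 0.0484, without the block 0.704), and this call, the closest to the threshold, was missed without control array 2 or 3 (0.187 and 0.117), 4 h array 2 or 3 (0.101 and 0.189), 12 h array 1, 2 or 3 (0.0714, 0.0668 and 0.0735) or 24 h array 1, 2 or 3 (0.0741, 0.0579 and 0.0649).

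Col6a1, Col6a2 and Col6a3 encode the 3 chains of the common type VI collagen, a filament around cells. Col6a1 read -0.52, -1.01 and -0.78 in control and -0.94, -1.44 and -1.13 at 12 h. It was lower in all 3 pairs, although the groups overlap. It fell by 0.40 at 12 h (SE 0.072, 1.32-fold lower, limma adjusted p 0.0245, without the block 1.0), a call missed without control array 1 or 2 (0.0601 and 0.122) or 12 h array 1, 2 or 3 (0.121, 0.126 and 0.0705). Its partner Col6a2 differed by -0.15 at 12 h (adjusted p 0.23) and Col6a3 by -0.059 (0.72), and neither passed. Col6a4 and Col6a5, chains that replace Col6a3, differed by -0.008 and -0.015. The other 4 collagens, Col9a3, Col12a1, Col15a1 and Col18a1, passed at no time, with differences from control between -0.14 for Col18a1 at 12 h and 0.18 for Col12a1 at 24 h (adjusted p 0.456).

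Markers of fibroblasts and mesenchymal cells, which are rich in collagens III, VI and XIV, moved on the same arrays. Of the 12 listed, 5 were measured, and all 5 lay below control at 4 h (median -0.22). Of these, Prrx1 (-0.49, limma adjusted p 0.00754, without the block 0.195) and Cdh11 (-0.45, adjusted p 0.0251, without the block 0.704) passed, the latter not without control array 2 or 3 (0.0676 and 0.0851) or 4 h array 2 or 3 (0.0807 and 0.0624). At 12 h 2 of the 5 lay above control (median -0.12), and Prrx1 alone passed (-0.495, limma adjusted p 0.0173, not called without the block). That call was missed without control array 1 or 2 (0.0601 and 0.109) or 12 h array 1 or 2 (0.0955 and 0.105). Among all genes 3.75% were called lower at 4 h and 1.42% at 12 h. The summed log2 ratio of the 5 markers ran from 1.45 to 2.86 on control arrays, from 0.39 to 2.04 at 4 h, from 0.90 to 2.28 at 12 h and from 1.46 to 2.83 at 24 h. Their part in the falls of Col3a1, Col8a1, Col14a1 and Col6a1 was not tested.

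**Figure D3:**
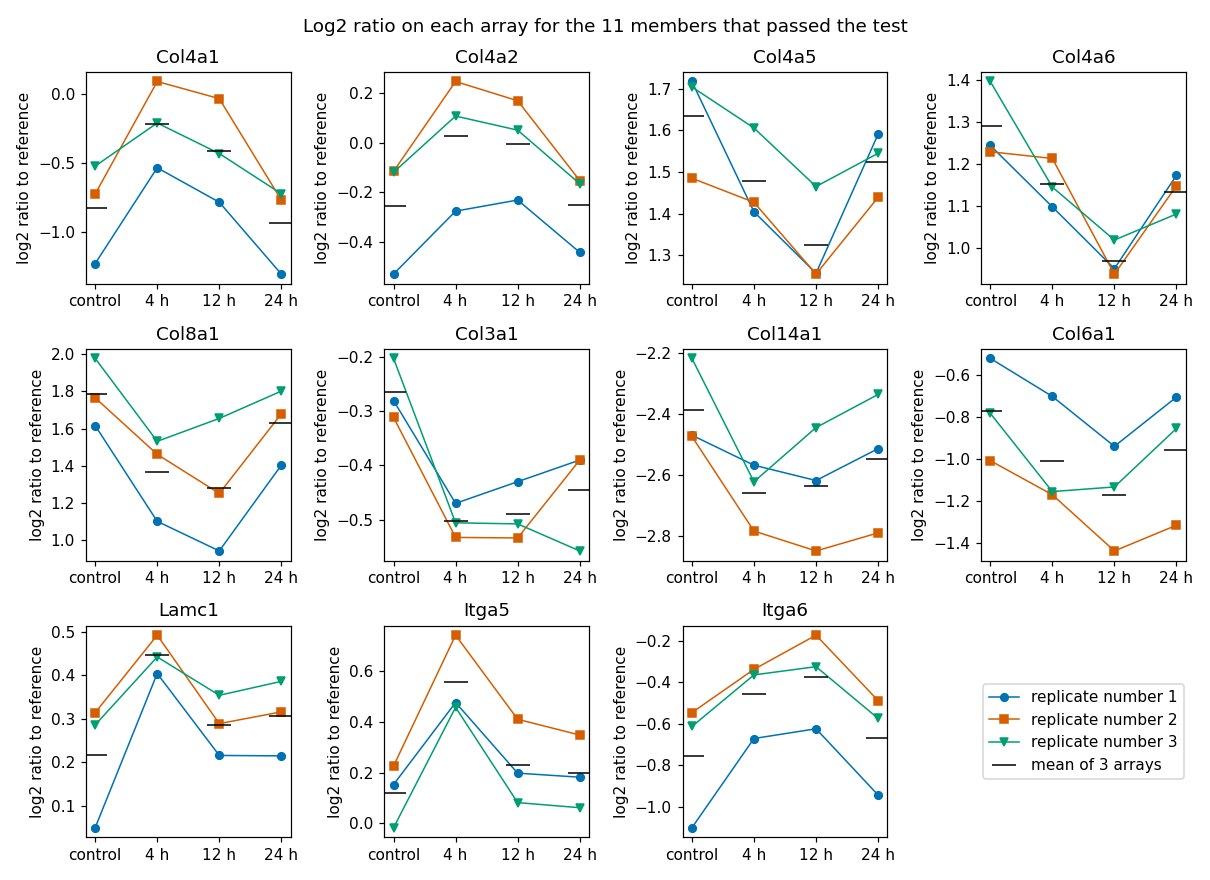
Log2 ratio to the reference RNA (y axis, its own range in each panel) in control, 4, 12 and 24 h BMP6 (x axis) for the 11 genes that passed a test, with a line for each replicate number and a bar for the mean of 3 arrays. Col4a1, Col4a2, Itga5 and Itga6 stand higher at 4 h in each replicate, Col8a1 lower, and their 24 h means lie nearer to the control means.

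Lamc1, the gamma 1 chain, was the only laminin that passed in a comparison with control. It read 0.050, 0.31 and 0.29 in control, 0.40, 0.49 and 0.44 at 4 h, 0.22, 0.29 and 0.35 at 12 h and 0.22, 0.32 and 0.39 at 24 h. The 4 h arrays lay above all 3 control arrays. It rose by 0.23 at 4 h (SE 0.052, 1.17-fold, limma adjusted p 0.0318, without the block 0.422), and the differences at 12 h (0.070, adjusted p 0.591) and 24 h (0.089, 0.753) did not pass. The call was missed without control array 1 or 3 (0.0707 and 0.0547), 4 h array 1 or 2 (0.0875 and 0.107), 12 h array 3 (0.0572) or 24 h array 1, 2 or 3 (0.0541, 0.0512 and 0.0504). Its partners in a laminin of endothelial basement membrane gave -0.064 for Lama4 (adjusted p 0.568) and -0.002 for Lamb1 (0.987) at 4 h.

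Among the other laminins, Lama1 read -0.22, -0.077 and -0.34 in control and -0.40, -0.37 and -0.45 at 24 h, lower in 3 of 3 pairs, by -0.20 (adjusted p 0.44). Lamb1 differed by -0.14 at 24 h (adjusted p 0.504) and Lama3, the epithelial alpha chain, by -0.073 (0.817). Lama2 and Lamb2 stayed within 0.030 of control at all 3 times.

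Itga5, the alpha 5 subunit, had the smallest p of the 47 genes. It read 0.15, 0.23 and -0.017 in control, 0.48, 0.74 and 0.46 at 4 h, 0.20, 0.41 and 0.082 at 12 h and 0.18, 0.35 and 0.062 at 24 h. The lowest 4 h array lay above the highest control array. It rose by 0.44 at 4 h (SE 0.048, 95% interval 0.33 to 0.54, 1.35-fold, limma adjusted p 0.00104, without the block 0.176), a call that held without any single array. With replicate number 2 left out of all groups, this call was missed (0.0795). At 12 and 24 h the differences were 0.11 (adjusted p 0.31) and 0.077 (0.778). Its partner Itgb1 read 0.62, 0.43 and 0.53 in control and 0.76, 0.56 and 0.65 at 4 h, higher in 3 of 3 pairs, with a difference of 0.13 that did not pass (adjusted p 0.146).

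Itga6, the alpha 6 subunit of laminin receptors, read -1.10, -0.55 and -0.61 in control, -0.67, -0.34 and -0.36 at 4 h, -0.62, -0.17 and -0.32 at 12 h and -0.94, -0.49 and -0.57 at 24 h. Array 1 was the lowest in every group, so the groups overlap, while all 3 pairs were higher at each time. It rose by 0.30 at 4 h (SE 0.052, limma adjusted p 0.0099, without the block 0.811) and by 0.38 at 12 h (SE 0.052, 1.30-fold, adjusted p 0.00758, without the block 1.0), and differed by 0.085 at 24 h (adjusted p 0.775). The 4 h call held without any single array, and the 12 h call was missed without 12 h array 1 or 2 (0.0556 and 0.0635). With replicate number 1, 2 or 3 left out of all groups, the 4 h call was missed (0.0899, 0.124 and 0.071). Its partner Itgb4, the hemidesmosome subunit, differed by 0.11 at 4 h (adjusted p 0.221) and 0.090 at 12 h (0.407).

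Itgav, the alpha V subunit, came just short. It read 0.13, 0.34 and -0.18 in control and 0.26, 0.51 and 0.43 at 4 h. The difference was 0.30 (limma adjusted p 0.0586, without the block 0.67), with 3 of 3 pairs higher, by 0.13, 0.17 and 0.61. It passed only when control array 1 was left out (0.37, adjusted p 0.0359). The 2 probes of Itgav gave 0.50 and 0.10 at 4 h. Its partner Itgb5 differed by 0.072 at 4 h (adjusted p 0.502). Itga3, a laminin receptor subunit, differed by -0.17 at 24 h (0.481), lower in 3 of 3 pairs. The collagen receptor subunits Itga1, Itga2 and Itga11 gave -0.12, -0.18 and 0.052 at 4 h, and none of them passed at any time. Itga4, Itga7, Itga8, Itga9, Itgb6 and Itgb7 did not pass either, with differences from control between -0.19 for Itga8 at 24 h (adjusted p 0.693) and 0.26 for Itga9 at 4 h (0.409). Itgb3bp gave -0.003 at 4 h.

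The times were also compared with each other. At 24 h against 4 h, Col4a1, Col4a2 and Itga5 were lower, 3 of the 47, where 1.85% of all genes were called higher and 2.2% lower. Col4a1 fell by 0.71 (SE 0.099, 1.64-fold lower, limma adjusted p 0.00542, without the block 0.436), and every 24 h array lay below every 4 h array. Col4a2 fell by 0.28 (SE 0.053, adjusted p 0.0165, without the block 0.863), with overlapping groups, and missed without 4 h array 2 or 3 (0.0898 and 0.0638) or 24 h array 2 or 3 (0.103 and 0.0832). Itga5 fell by 0.36 (SE 0.048, adjusted p 0.00449, without the block 0.365), with no overlap. The Col4a1 and Itga5 calls held without any single array. With a replicate number left out of all groups, Col4a1 missed without 1 or 2 (0.0582 and 0.0978) and Itga5 without 2 or 3 (0.125 and 0.0721). At 12 h against 4 h, with a background of 0.266% higher and 1.03% lower, Itga5 alone of the 47 was called: it fell by 0.33 (SE 0.048, adjusted p 0.0217, without the block 0.96), and was missed without 4 h array 2 or 3 (0.144 and 0.0922) or 12 h array 1, 2 or 3 (0.0873, 0.106 and 0.134). At 24 h against 12 h none of the 47 passed limma's test with the block (0.109% of all genes did), 7 had an unadjusted p under 0.05 with it, 1 without it and 3 by the methods' t-test. Of all 8267 genes, 707 had such a p with the block, 152 without it and 256 by the methods' t-test.

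Family counts moved with single arrays. The 5 collagens called at 4 h became 2 without control array 2 or 4 h array 2, and 3 without control array 3, 4 h array 3, 24 h array 1 or any one of the 12 h arrays. The 5 called at 12 h became 0 without 12 h array 1 or 2, 1 without 12 h array 3 or control array 1 or 2, and 3 without any one of the 24 h arrays. The 2 integrins called at 4 h became 3 without control array 1 and stayed 2 under each other removal. At 24 h against 4 h the 2 collagens became 1 without 4 h array 2 or 3 or 24 h array 2 or 3, and 3 without control array 3 or 12 h array 3. In the same comparison the 1 integrin became 2 without control array 1 or 3 or 12 h array 1.

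In 15 of the 47 genes several probes were measured, and in the rest 1. For 6 of the 11 genes that passed, 2 probes could be set side by side at 4 h, with adjustment over all 20280 probes in the blocked limma fit. In each of the 6, 1 probe passed and the other did not. The Itga5 probes gave 0.68 (adjusted p 0.0006025) and 0.19, those of Col4a2 0.44 (0.013) and 0.12, and those of Lamc1 0.39 (0.0238) and 0.071. On the falling side, the Col8a1 probes gave -0.58 (0.00517) and -0.26, the Col3a1 probes -0.46 (0.0291) and -0.019, and the Col14a1 probes -0.43 (0.0299) and -0.11. Both probes of each of the 6 genes lay on the same side of 0 at 4 h. At 12 h neither probe of Col4a2 passed alone: they gave 0.35 (adjusted p 0.0764) and 0.15 (0.499). Col4a5, Col4a6 and Col6a1, with 1 probe each, passed among genes at 12 h but not among probes (0.0884, 0.0604 and 0.0562), where more tests are adjusted for. Of the Col8a1 probes 1 passed at 12 h (-0.66, 0.00886) and the other did not (-0.35, 0.156). The reverse was seen for Col3a1 at 12 h, where 1 probe passed (-0.53, 0.0413) and the gene mean did not. The other Col3a1 probe gave 0.074, on the opposite side of 0. The reverse was also seen at 24 h against 4 h, for 1 probe of Lamc1 (-0.41, adjusted p 0.0259) and 1 of Lamb1 (-0.30, 0.0323). There the other Lamc1 probe gave 0.13, on the opposite side of 0, and the other Lamb1 probes gave -0.031, -0.15 and -0.051. In the same comparison 1 Col4a2 probe passed (-0.53, adjusted p 0.0104) and the other did not (-0.027, 0.918). The Itga5 probes gave -0.62 (0.00174) and -0.096 (0.55) there. At 12 h against 4 h they gave -0.56 (0.00986) and -0.092 (0.636). No probe that passed with the block passed without it. The level of a gene depends on its probe as well: the probe means over 12 arrays differed by a median of 0.48 among the 15 genes and by 3.54 in Col6a3 (-2.31 and 1.22), and in 8 of the 15 they lay on both sides of 0.

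**Figure D4:**
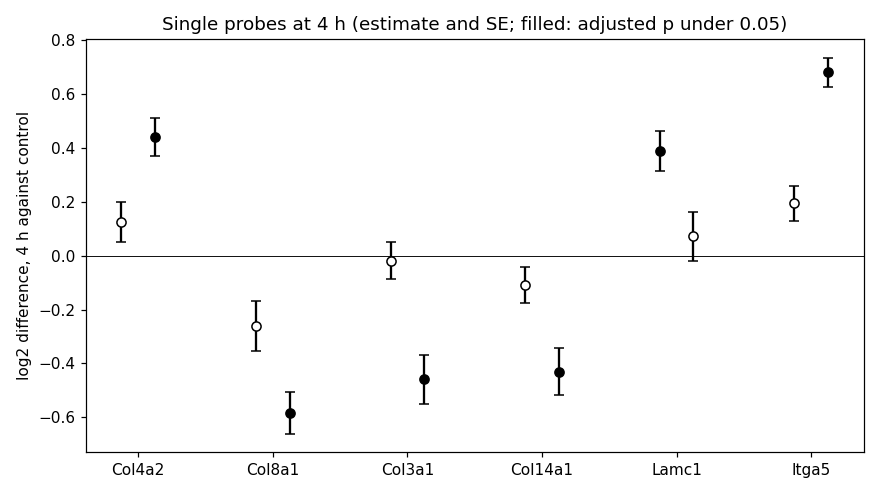
Log2 difference at 4 h against control (y axis) for each of the 2 probes of the 6 called genes that had 2 (x axis), with SE bars, filled where the adjusted p was under 0.05. In every gene 1 point is filled, and it is the one farther from 0.

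Replicate number carried more of the variation than treatment in 34 of the 47 genes, and in 6061 of all 8267 genes. The median share of a gene's variation over the 12 arrays was 53.7% for replicate number and 27.5% for treatment group in collagens, 56.3% and 33.4% in laminins, and 55.2% and 14.5% in integrins. Over all genes the medians were 51.2% and 18.9%. The chains of type I collagen, the main fibrillar collagen, stood at that end, with 93.3% for Col1a1 and 96% for Col1a2. Col1a1 read 0.72, 0.040 and -0.065 on control arrays 1 to 3 and Col1a2 read 1.04, 0.45 and 0.34, and array 1 was the highest of its group in both genes at every time. The genes with the largest share for treatment group were Col4a6 and Col3a1, where replicate number held 2.1% and group 82.9% for Col4a6, and 4.8% and 76.9% for Col3a1. The smallest share for replicate number was that of Itga9, at 1.3%, with 23.2% for group. What same-numbered arrays share is not stated in the labels.

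Genes that work with these families were counted from lists. The share of all genes called was 2.27% higher and 3.75% lower at 4 h, and 0.472% higher and 1.42% lower at 12 h. Of 22 listed enzymes that modify or crosslink collagen, 16 were measured. At 4 h 1 of them was called: P4ha1, a prolyl hydroxylase subunit, fell by 0.32 (limma adjusted p 0.025, without the block 0.532), and missed without control array 2 or 3 (0.105 and 0.0771) or 4 h array 2 or 3 (0.0726 and 0.0695). None was called against control at 12 or 24 h. Lox, the lysyl oxidase that crosslinks collagen, was lower at 24 h than at 4 h (-0.55, adjusted p 0.00308, without the block 0.905). Of 14 other basement membrane and collagen-binding genes 10 were measured, and 1 was called, Tgfbi at 12 h (-0.34, adjusted p 0.0317, without the block 1.0), which missed without control array 1 or 2 (0.0587 and 0.148), 12 h array 1, 2 or 3 (0.114, 0.162 and 0.105) or 24 h array 1 (0.0555).

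On the receptor side, 9 of 18 listed integrin ligands other than collagens and laminins were measured. Ccn2, a matricellular ligand, was higher at 4 h (1.37, 2.58-fold, limma adjusted p 0.00354, without the block 0.0362), and Vcam1, the ligand of alpha 4 integrins, was lower at 12 h (-0.80, adjusted p 0.00205, without the block 1.0). Of 20 listed focal adhesion proteins, which link integrins to actin, 14 were measured, and 2 were called at 4 h, both higher: Vcl (vinculin, 0.77, adjusted p 0.000987, without the block 0.0366) and Actn1 (alpha-actinin, 0.48, adjusted p 0.00104, without the block 0.151). Among all genes 2.27% were called higher at 4 h. None of the 14 was called against control at 12 or 24 h. The median over the 14 was 0.034 at 4 h, beside -0.006 for all genes. Ccn2 and Vcl were the only genes named here whose difference from control passed without the block.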

How the data were processed

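Values of 12 two-colour arrays of the MEC cell line were used as deposited, taken as log2 ratios of cells to reference. Per the labels, the authors scanned with a GenePix 4000B scanner and GenePix Pro 5.0 and normalized by a modified local quantiles method. Each group held independent biological triplicates. Of 20280 values an array, 10576 lay on probes with 1 symbol (8267 genes), and probes of a gene were averaged. Names were placed by an inferred grid order (correlation between probes of a gene 0.471, against 0.021 in the deposited order, over 1831 genes).

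limma 3.58.1 in R 4.3.3 (lmFit, eBayes, two-sided, tested on simulated data) fitted the 12 arrays with the replicate number of the titles as an additive block. The pairing was checked on deviations from group means. Same-numbered arrays of different groups correlated at 0.443 to 0.695, and differently numbered arrays of different groups at -0.564 to 0.069. Deviations within a group sum to 0, so a high first range forces the second down, and the second is not separate support. No label says what the numbers share. With the block, p-values measure the spread left among these arrays after group and replicate number are taken out. Alternatives were no block, quantile normalization, median centring, other probe summaries, the platform table's own symbols, the methods' t-test and each array left out. Genes were named if called in any comparison, with the smallest F-test p added up to 4 a family, the 2 highest and 2 lowest levels of each family, and protein partners. The members and lists were chosen with earlier results of these data known. Spot intensities were not used here, so detection was not judged, and 3 arrays a group limit the precision.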

Additional observations from a re-analysis of the deposited data

Results flagged for a closer look

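Differences between treatment times were tested for each of the 47 genes, and 4 of these tests passed with the replicate block in limma. Col4a1 fell by 0.71 on the log2 scale from 4 to 24 h, Col4a2 fell by 0.28 and Itga5 fell by 0.36 over the same interval, and Itga5 fell by 0.33 from 4 to 12 h. In each of these 4 comparisons all 3 pairs of arrays were lower at the later time. For Col4a2 and Itga5, 1 of the 2 probes passed alone in these comparisons and the other did not. None passed without the block.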

How the results depend on the processing

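None of the 18 calls among the 47 genes was reversed, and 6 held without each single array. All 18 were missed without the replicate block and by the methods' t-test after adjustment: collagens at 4 h, 12 h and 24 h against 4 h, laminins at 4 h, and integrins at 4 h, 12 h, 12 h against 4 h and 24 h against 4 h all had 0. Quantile normalization and median centring each lost 1 call. The median of a gene's probes and the platform table's own symbols lost 0, but neither could change the values of these genes. Each called gene had 1 or 2 probes, for which median and mean are the same, and the same symbol in both settings. Leaving out replicate number 1, 2 or 3 from all groups lost 16, 18 and 11. Without adjustment, the methods' t-test gave 1 collagen at 4 h, 1 at 24 h, 2 at 12 h against 4 h, 1 at 24 h against 4 h and 1 at 24 h against 12 h. It gave 0 laminins at 4 h, 1 at 12 h against 4 h and 2 at 24 h against 12 h, and 1 integrin at 4 h, 0 at 12 h, 0 at 12 h against 4 h and 2 at 24 h against 4 h. Counting single probes gave 2 collagens at 12 h and 2 laminins at 24 h against 4 h. With 1 array or replicate number left out, collagens called ranged from 0 to 5 at 4 h, 0 to 6 at 12 h, 0 to 3 at 24 h against 4 h and 0 to 1 at 24 h against 12 h. Laminins ranged from 0 to 1 at 4 h, and integrins from 0 to 3 at 4 h, 0 to 1 at 12 h, 0 to 1 at 12 h against 4 h and 0 to 2 at 24 h against 4 h. Differences that turned sign were all uncalled. With arrays left out, the 4 h difference of Lama1 ran from -0.042 to 0.046, of Lamb1 from -0.036 to 0.050, of Lama3 from -0.001 to 0.082 and of Itga3 from -0.109 to 0.017, and the 12 h difference of Lamb1 from -0.070 to 0.008. The cause was not tested. A call rests on 3 pairs, and signal over background was not judged.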
